A study of Mus musculus with 6 samples.

Results

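The genes described here are 42 mouse genes of the NF-kappaB system: inhibitors and feedback genes, the subunits of the transcription factor, and secreted cytokines and chemokines. They were listed by symbol and matched to the Ensembl identifiers of the count tables. All 42 were found among 48526 identifiers. The libraries were made from mouse KP cells, a name the labels do not explain, carrying a Tet-on pLKO.1 vector for a short hairpin RNA against Npm1 and selected with puromycin. Every library came from such cells, also those in which the hairpin was not induced. The 3 stable lines, named here line 3, line 4 and line 5 after their hairpins (shNpm1-3, shNpm1-4 and shNpm1-5), were sequenced without doxycycline and with 100 ng/ml of it, which switches the hairpin on. This gave 2 groups of 3 libraries, 1 per line and condition. The question is which of the 42 genes changed in level when Npm1 was knocked down, and by how much in each line. No library from cells treated with the drug but lacking an Npm1 hairpin was used here, so the drug and the knockdown cannot be told apart. The p-values measure the spread between lines with different hairpins, since each line had 1 library per condition, and no batch or date was given in the sources used here.

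NF-kappaB is a family of dimeric transcription factors that sit in the cytoplasm bound to inhibitor proteins of the IkappaB family. Signals from tumour necrosis factor, interleukin 1 or microbial products activate kinases that mark the inhibitors for destruction, and the freed dimers turn on cytokine and chemokine genes. Among the targets are the genes of the inhibitors themselves and of A20 (Tnfaip3), which closes a negative feedback loop. In epithelial tumours the pathway is known for secreted factors that recruit and sustain leukocytes.

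The binding sites of these dimers, kappaB sites, have been described upstream of many of the listed genes. Promoter windows from RefSeq (GRCm38.p6, 250 bases before to 50 after a transcript start) were found for 30 of the 42 genes. None was found for Il23a, Relb, Ccl2, Tslp, Cxcl16, Ccl5, Nfkbiz, Nfkb1, Il34, Csf3, Ccl7 and Cxcl5. On either strand the letters GGGNNNTTCC occurred in a window of 13 of the 30 genes (43.3%), against 6.31% of 27025 genes with a window. The kappaB consensus, another pattern that overlaps with these letters, was matched in 13 of the 30 (43.3%) against 5.14% of all genes. Of the 5 genes that fell with doxycycline (below), Tnfaip3, Tnip3 and Ltb had a match, and Tnfaip2 had none in its window. A match describes letters and not a bound site. The 110 bases around the matches are shown for these 3 genes and, for comparison, for Nfkbia, Tnip1 and Cxcl1, whose changes with doxycycline did not pass the test. They are given 5′ to 3′ on the strand of the gene, with the matched letters in capitals.
Tnfaip3 (chr10:19015411-19015520, minus strand): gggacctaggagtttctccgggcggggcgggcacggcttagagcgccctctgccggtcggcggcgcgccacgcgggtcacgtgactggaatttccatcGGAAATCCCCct
Tnip3 (chr6:65590288-65590397, plus strand): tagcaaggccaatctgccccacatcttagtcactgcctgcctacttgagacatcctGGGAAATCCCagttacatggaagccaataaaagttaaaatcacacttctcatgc
Ltb (chr17:35194329-35194438, plus strand): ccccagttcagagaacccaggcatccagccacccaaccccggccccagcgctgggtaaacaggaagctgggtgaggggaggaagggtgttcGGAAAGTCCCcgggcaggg
Nfkbia (chr12:55492648-55492757, minus strand): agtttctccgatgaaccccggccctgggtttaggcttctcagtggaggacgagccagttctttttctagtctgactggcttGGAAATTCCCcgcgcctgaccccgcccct
Tnip1 (chr11:54962941-54963050, minus strand): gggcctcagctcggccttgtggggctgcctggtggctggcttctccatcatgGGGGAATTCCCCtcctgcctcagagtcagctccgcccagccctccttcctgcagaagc
Cxcl1 (chr5:90891131-90891240, plus strand): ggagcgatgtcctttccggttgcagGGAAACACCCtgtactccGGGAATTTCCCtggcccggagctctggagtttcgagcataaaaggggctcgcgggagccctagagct

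The counts in genes were 24391198 to 27341036 per library, and 14531 genes had enough counts to be tested. Levels are given as CPM, each gene's counts scaled to a common library size with edgeR's TMM factors. Npm1 itself, which has near-identical copies in the genome between which reads could be split, was at 2000, 1850 and 1923 CPM in lines 3, 4 and 5 without doxycycline and at 67.7, 245 and 399 CPM with it. It was lower in 3 of 3 lines (log2 fold change -3.02, SE 0.49, edgeR quasi-likelihood test with Benjamini-Hochberg adjustment, adjusted p = 0.0111). Without both libraries of line 4 the adjusted p was 0.177, and without the untreated library of line 3 it was 0.0937. Summed epithelial markers, mostly keratins, stood at 10115 to 12098 CPM in the untreated and 8891 to 10598 CPM in the treated libraries, and Nkx2-1, a marker of lung epithelium, had 0 counts. All 7 tested epithelial markers had a log2 fold change below 0 (49.6% of all tested genes), with a median of -0.29. Of these, Cldn4 alone passed the test. Markers of leukocytes moved with the treatment. Of 16 tested markers of T and NK lymphocytes 15 fell, and their sum was 25.9 to 36.3 CPM in the untreated and 1.87 to 4.67 CPM in the treated libraries, where Cd3d, Nkg7, Gzma and Prf1 had 0 counts. Of 12 tested macrophage markers 10 rose. Their sum ranged from 373 to 435 CPM in untreated and from 325 to 496 CPM in treated libraries; leaving out Mrc1, a choice made after its values were seen, it ranged from 22.1 to 24.7 and from 115 to 261 CPM. The B lymphocyte sum stayed at or under 1.15 CPM and the neutrophil sum at or under 2.78 CPM in every library. Dendritic cell markers summed to 5.37 to 7.81 CPM without and 3.63 to 4.65 CPM with doxycycline, endothelial markers to at most 1.33 CPM and fibroblast markers to at most 6.54 CPM. In bulk RNA, fewer cells of a type and less RNA per cell cannot be told apart.

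With doxycycline, 5 of the listed genes fell and 0 rose. Those that fell were Tnfaip3, Tnfaip2 and Tnip3 among the genes listed as inhibitors and feedback, the chemokine Ccl5, and Ltb of the tumour necrosis factor family. Of the 42 genes 31 passed the filter and were tested, and 26 of them did not pass an adjusted p of 0.05. Over all 14531 tested genes the same test called 1.32% lower and 0.963% higher (2.28% in either direction). At an unadjusted p under 0.05, 9 of the 31 were lower and 0 higher, where the background was 7.96% lower and 8.33% higher. DESeq2 and limma-voom on the same genes also called 5 lower and 0 higher. Over all genes DESeq2 called 2.69% lower and 2.26% higher, and limma-voom 1.47% and 0.867%. With the line as a block 3 were lower, Tnfaip3, Tnfaip2 and Ccl5 (0.963% of all genes). The number lower was 1 without line 4 (Ccl5; 0.186% of all genes) and 2 without the untreated library of line 3 (0.356%). It was 3 without the untreated library of line 4 (0.428%) or of line 5 (0.762%) and without line 5 (0.762%). Without line 5 these were Tnfaip3, Ccl5 and Il1rn, the last not among the 5. Without the treated library of line 3, 7 of 33 tested genes were lower and 2, Il33 and Ccl2, higher, in a fit that called 5.79% of all genes lower and 4.57% higher. Without both libraries of line 3 the same 2 were higher (1.80% of all genes). Without a filter on low counts, where all 42 genes were tested, 6 were lower (2.30% of all genes) and 3 higher (1.59%), namely Il33, Ccl2 and Ccl7. The log2 fold change was below 0 for 22 of the 31 (49.6% of all tested genes). Their median was -0.25, against a median of 0.00 over all genes and the -0.29 of the epithelial markers. Within lines 3, 4 and 5 the median was -0.09, -0.41 and -0.25. Line 3, in which Npm1 reached its lowest level, had the median nearest to 0. With 1 library per line and condition, a relation between the 2 was not tested. In 14 of the 31 genes the level was lower in every line (19.5% of all genes). The groups did not overlap in 10 genes that were lower (11.2% of all genes) and in 1, Rel, that was higher (11.3%).

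**Figure D1:**
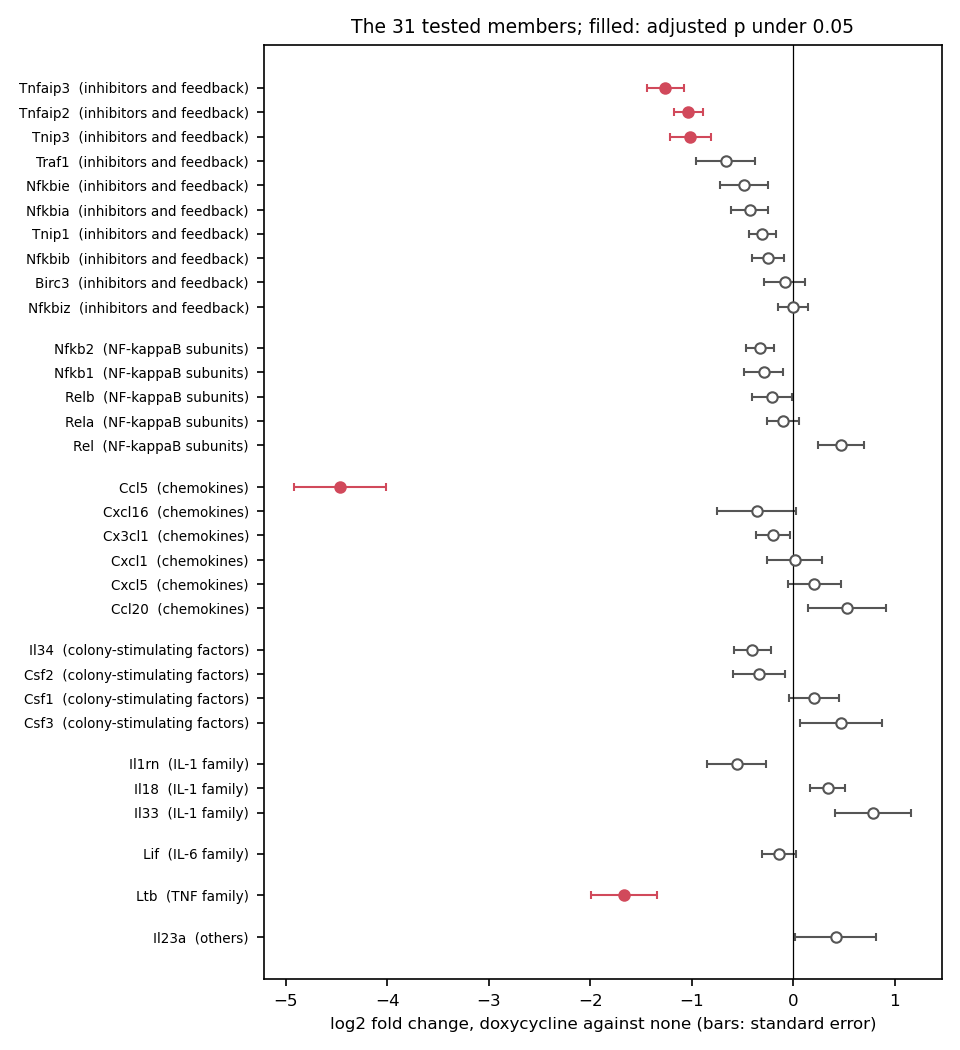
Log2 fold change (x axis) with doxycycline against none for the 31 tested genes, ordered by role (y axis). Bars are standard errors from edgeR and filled points mark an adjusted p under 0.05. All 10 inhibitor and feedback genes lie at or below 0, with Nfkbiz at -0.00, and Ccl5 lies farthest from 0 at -4.46.

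The genes listed as inhibitors and feedback had the most calls of any role. All 10 were tested, and all 10 had a log2 fold change below 0 (49.6% of all tested genes), with a median of -0.46. Of these, 3 passed the test, where 1.32% of all genes were called lower. Nfkbiz was at 0 to 2 decimals and was above 0 under 6 of 16 alternative settings. Tnfaip3 (ENSMUSG00000019850, mm10 chr10:19000910-19015657, minus strand, 9 exons) encodes A20, a ubiquitin-editing enzyme that shuts off signalling to NF-kappaB. It was at 43.8, 47.3 and 36.7 CPM in lines 3, 4 and 5 without doxycycline and at 18.7, 13.7 and 21.0 CPM with it. Every treated library was below every untreated one, and 42.6%, 29.0% and 57.4% of the untreated level remained. The means were 42.6 ± 5.41 and 17.8 ± 3.73 CPM (SD, n = 3). On the log2 scale the difference was -1.26 (SE 0.18), with an edgeR adjusted p of 0.00502. The adjusted p was 0.0786 without line 4 and 0.0595 without the untreated library of line 3, the 2 of 16 alternative settings in which the call was lost.

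Tnfaip2 (ENSMUSG00000021281, mm10 chr12:111442469-111455018, plus strand, 12 exons), a gene first found as induced by tumour necrosis factor, was the most abundant of the 42 per kilobase of transcript. Its level was 235, 264 and 251 CPM without doxycycline and 141, 104 and 123 CPM with it. The groups did not overlap, and line 4 was both the highest without and the lowest with doxycycline. The log2 fold change was -1.03 (SE 0.14, edgeR adjusted p = 0.00429). The call was lost without line 4 (adjusted p = 0.0794) and without line 5 (adjusted p = 0.0512). An antisense gene, Gm40578, shares 3.90% of its exonic bases, and the strand setting of the counting was not given in the labels. Tnip3 (ENSMUSG00000044162, mm10 chr6:65525313-65634040, plus strand, 8 exons) encodes ABIN-3, a partner of A20. It went from 13.2, 11.4 and 12.6 CPM to 5.17, 7.79 and 5.39 CPM, again with no overlap (log2 fold change -1.01, SE 0.20, edgeR adjusted p = 0.0304). This call was kept in 7 of 16 alternative settings. It was lost with the line as a block (adjusted p = 0.059), at a mean of at least 5 CPM (0.0712), without any of the 3 untreated libraries (0.125 to 0.165), without the treated library of line 5 (0.0823) and without any line (0.0677 to 0.279).

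The other genes listed as inhibitors and feedback did not pass the test. Nfkbia, the gene of the inhibitor IkappaB-alpha, was at 34.4, 31.8 and 30.2 CPM without doxycycline and at 31.3, 19.1 and 21.2 with it (log2 fold change -0.43, edgeR adjusted p = 0.288). Its treated library of line 3 lay within the untreated range and the other 2 lay below it. Without that treated library, in the fit that called 5.79% of all genes lower, edgeR gave a log2 fold change of -0.67 with an adjusted p of 0.0103, and without line 3 one of -0.61 with an adjusted p of 0.0461. Tnip1, the gene of ABIN-1, was at 36.0, 44.7 and 41.2 CPM and then at 35.4, 29.9 and 33.4, groups that did not overlap (edgeR adjusted p = 0.303). Nfkbib, the gene of IkappaB-beta, which shares 16.4% of its exonic bases with genes on the other strand, was at 16.9, 22.6 and 21.4 CPM and then at 17.7, 15.5 and 17.98. Nfkbiz, whose protein is a nuclear IkappaB that assists transcription, was at 55.0, 48.6 and 51.1 CPM and then at 43.4, 49.5 and 61.3. Birc3, the gene of the ubiquitin ligase cIAP2, was at 12.8, 10.9 and 11.5 CPM and then at 8.78, 14.4 and 10.1. In these last 3 genes the groups overlapped, and the edgeR adjusted p was 0.478, 0.995 and 0.891. The less abundant Nfkbie, another IkappaB gene, ranged from 2.99 to 3.31 CPM without and 2.14 to 2.31 with doxycycline. Traf1, an adaptor of tumour necrosis factor receptors, ranged from 4.62 to 5.96 and 2.01 to 4.32 CPM. Both had groups that did not overlap and neither passed (edgeR adjusted p = 0.347 and 0.295).

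**Figure D2:**
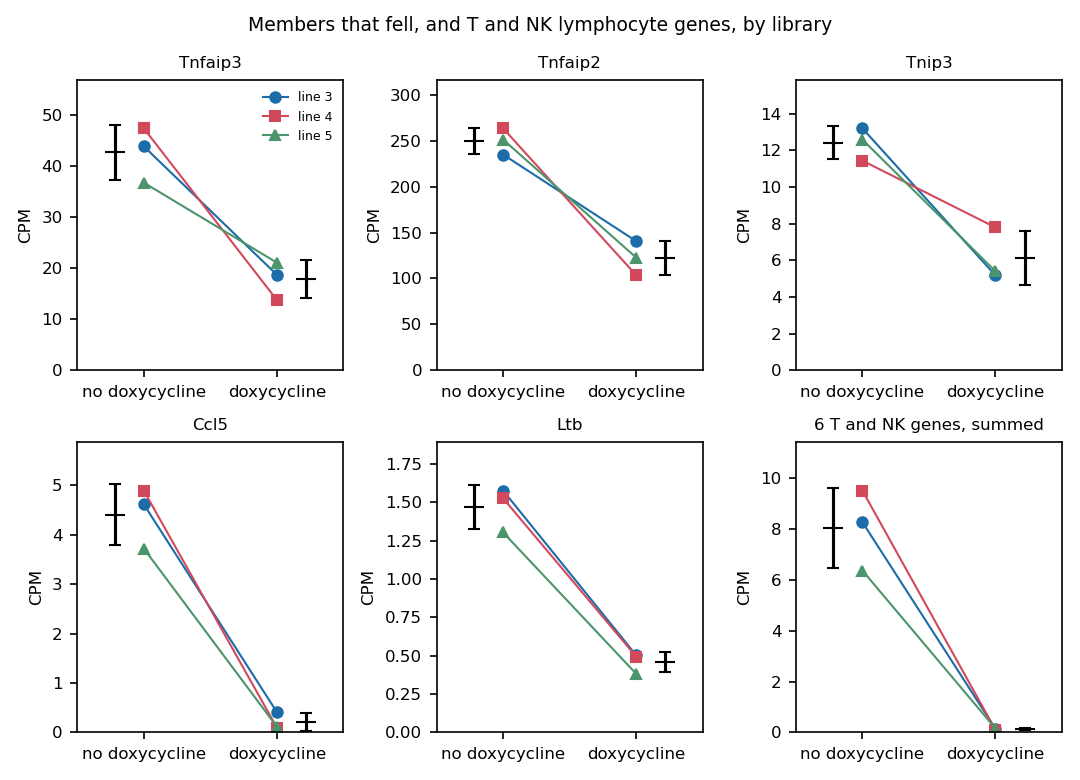
Level in CPM (y axes, from 0) of the 5 genes that fell, and of 6 T and NK lymphocyte genes summed, without and with doxycycline (x axes); coloured symbols joined by a line are the 3 stable lines, and black bars are the mean and SD of 3 libraries. In all 6 panels every treated library lies below every untreated one, and the lymphocyte sum is at 0.099 to 0.153 CPM with doxycycline.

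None of the 5 subunit genes passed the test in edgeR, DESeq2 or limma-voom, and 1, Nfkb2, had an unadjusted p under 0.05. Rela, the gene of the p65 subunit, was at 27.9, 39.2 and 39.7 CPM without doxycycline and at 34.5, 34.2 and 31.2 with it. Nfkb1, the gene of p105 and p50, was at 24.4, 33.7 and 30.5 CPM and then at 19.3, 22.7 and 30.5. Nfkb2, the gene of p100 and p52, was at 21.9, 25.2 and 25.0 CPM and then at 21.0, 17.7 and 18.8. Of these 3 Nfkb2 alone had groups that did not overlap (log2 fold change -0.33, SE 0.14, edgeR adjusted p = 0.285). For Nfkb2, 19.7% of the exonic bases are shared with genes on the other strand. Relb, the partner of p52, was at 12.6, 15.3 and 12.6 CPM and then at 14.96, 10.8 and 9.45. Rel, the subunit best known from lymphocytes, ranged from 3.15 to 3.48 CPM without and 3.82 to 5.21 CPM with doxycycline (log2 fold change 0.47, SE 0.23, edgeR adjusted p = 0.341). It was the only tested gene of the 42 that lay higher in every treated than in every untreated library.

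Among the chemokines, 6 of 11 were tested and Ccl5 alone passed. Ccl5 (ENSMUSG00000035042, mm10 chr11:83525778-83530518, minus strand, 3 exons), a chemokine that T lymphocytes and NK cells make in quantity, was at 4.62, 4.89 and 3.72 CPM without doxycycline and at 0.412, 0.099 and 0.115 CPM with it. The level that remained was 8.92%, 2.02% and 3.08% in lines 3, 4 and 5, where the treated libraries held 9, 3 and 3 counts. Ccl5 passed the filter through its untreated libraries. The log2 fold change was -4.46 (SE 0.45) with an edgeR adjusted p of 0.00102, and all 15 alternative settings in which it was tested kept the call. Cx3cl1, the membrane-bound ligand of Cx3cr1, was at 56.8, 72.6 and 68.1 CPM and then at 54.5, 71.1 and 46.6. Cxcl1, which attracts neutrophils, was at 6.16, 5.48 and 6.06 CPM and then at 8.42, 3.99 and 5.55. Both overlapped between groups (edgeR adjusted p = 0.624 and 0.989). Cxcl16, the ligand of Cxcr6, was at 11.002, 8.85 and 10.01 CPM and then at 13.6, 3.47 and 6.43, so that it was higher in line 3 and lower in lines 4 and 5. Its edgeR adjusted p was 0.71, and 0.025 without the treated library of line 3, with a log2 fold change of -1.01, in that same fit of more calls. Zmynd15 on the other strand shares 20.5% of its exonic bases. Ccl20 ranged from 0.769 to 0.844 CPM without and 0.66 to 1.61 with doxycycline, and Cxcl5 from 3.26 to 4.31 and 3.06 to 5.26 CPM. Neither passed (edgeR adjusted p = 0.545 and 0.756).

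The colony-stimulating factors, which sustain macrophages and granulocytes, were all tested and 0 passed in edgeR, DESeq2 and limma-voom; 0 had an unadjusted p under 0.05. Il34, a ligand of the macrophage receptor Csf1r, was at 20.3, 22.7 and 21.3 CPM without doxycycline and at 19.0, 12.1 and 17.6 with it. Its groups did not overlap (log2 fold change -0.40, SE 0.18, edgeR adjusted p = 0.307). Csf1, the other ligand of that receptor, ranged from 2.86 to 3.54 CPM without and 3.33 to 4.69 with doxycycline. Csf2, with 12.0% of its exonic bases shared with an antisense gene, ranged from 4.74 to 6.18 and 2.97 to 5.13 CPM, and Csf3 from 0.308 to 0.729 and 0.574 to 0.825 CPM. In Csf1, Csf2 and Csf3 the groups overlapped.

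The 3 tested IL-1 family genes did not pass the test. Il33, an alarmin stored in the nucleus and released from damaged cells, was at 35.7, 55.4 and 54.9 CPM without doxycycline and at 34.7, 132 and 84.3 CPM with it. In lines 4 and 5 the treated level was 239% and 154% of the untreated one, and in line 3 it was 97.1%. The log2 fold change over the 3 lines was 0.78 (SE 0.38, edgeR adjusted p = 0.34), and without the treated library of line 3 it was 1.16 with an adjusted p of 0.00636, in the fit that called 4.57% of all genes higher. Without line 3 it was 0.98 (adjusted p = 0.0435). With no filter on low counts it was 0.77 (edgeR adjusted p = 0.000135), in a fit that called 1.59% of all genes higher. That unfiltered fit gave far smaller adjusted p-values for called genes too, 2.78e-56 against 0.0111 for Npm1. The smaller value therefore cannot be read as stronger evidence for Il33. Il1rn, the gene of the IL-1 receptor antagonist, was at 55.1, 66.2 and 69.8 CPM and then at 30.2, 29.5 and 70.2. It was lower in lines 3 and 4 and level in line 5, where 101% remained (log2 fold change -0.56, SE 0.29, edgeR adjusted p = 0.387). Without the treated library of line 5 its log2 fold change was -1.09 with an adjusted p of 0.00915, and without line 5 it was -1.03 (adjusted p = 0.0375). With no filter on low counts it was -0.57 (edgeR adjusted p = 0.0153), in the same unfiltered fit of smaller adjusted p-values, which called 2.30% of all genes lower. Il18, made as a precursor that caspase-1 cleaves, was at 21.0, 14.3 and 16.5 CPM and then at 24.3, 22.01 and 19.3, higher in 3 of 3 lines but with overlapping groups (edgeR adjusted p = 0.376).

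**Figure D3:**
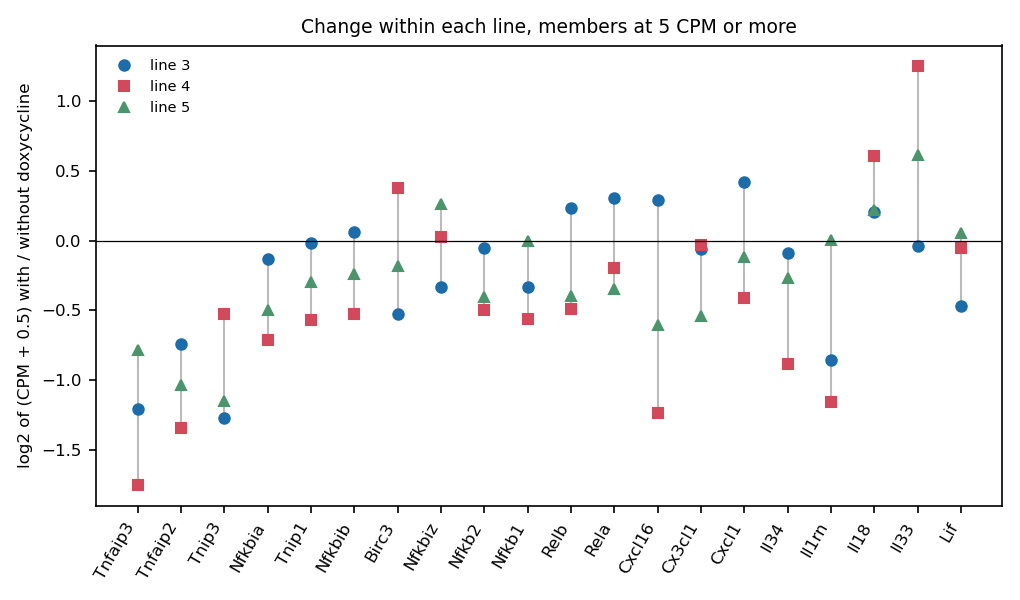
Log2 ratio of the level with to that without doxycycline (y axis, 0.5 CPM added to each) in each stable line, for the 20 listed genes with a mean of at least 5 CPM (x axis, by role). Tnfaip3, Tnfaip2 and Tnip3 lie below 0 in all 3 lines, while Il33 ranges from -0.04 in line 3 to 1.25 in line 4 and Cxcl16 from 0.29 to -1.24.

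Of the remaining secreted factors Lif, an IL-6 family cytokine, was at 32.4, 36.3 and 32.9 CPM without doxycycline and at 23.2, 34.9 and 34.1 with it (edgeR adjusted p = 0.75). Il23a ranged from 0.614 to 1.10 CPM and 0.686 to 1.72 CPM (edgeR adjusted p = 0.672). Ltb (ENSMUSG00000024399, mm10 chr17:35194439-35196320, plus strand, 3 exons), which forms the membrane ligand of the lymphotoxin beta receptor together with lymphotoxin alpha, was at 1.58, 1.53 and 1.30 CPM without doxycycline and at 0.503, 0.495 and 0.382 with it. The groups did not overlap and 31.9%, 32.4% and 29.3% remained, the narrowest range over lines among the 5 genes that fell. The treated levels rest on 11, 15 and 10 counts, so little can be read from that narrow range. The log2 fold change was -1.67 (SE 0.33, edgeR adjusted p = 0.0277), and 6 of 15 alternative settings kept the call. It was lost with the line as a block (adjusted p = 0.0657), without any of the 3 untreated libraries (0.0976 to 0.175), without the treated library of line 4 (0.0503) or line 5 (0.0836), and without any line (0.0569 to 0.257).

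The filter on low counts left 11 of the 42 genes out of the test, namely Ccl2, Ccl7, Cxcl2, Cxcl12, Cxcl15, Il1a, Il1b, Il6, Il11, Tnf and Tslp. None exceeded 0.385 CPM in an untreated or 1.09 CPM in a treated library. Tnf, the founding cytokine of its family, had 15 counts over the 3 untreated and 28 over the 3 treated libraries, a ratio of 1.85 after scaling (95% interval 0.955 to 3.73, covering counting error only). Il6 had 4 and 8 counts, Il1a 13 and 10, and Il1b 5 and 0. At these counts only large changes could be seen in these 4 cytokines. Cxcl2 had 14 and 7 counts, Il11 26 and 33, Tslp 21 and 14, and Cxcl12 0 and 3. Cxcl15 had 7 and 24, a ratio of 3.40 after scaling (95% interval 1.42 to 9.34), with 0.229, 0.561 and 0.0765 CPM in the treated libraries of lines 3, 4 and 5 and 0 to 0.192 CPM in the untreated ones, so that the groups overlapped. Ccl2 and Ccl7, both ligands of Ccr2 that attract monocytes, had 6 and 0 counts without and 52 and 22 counts with doxycycline. They are described with the other results for a closer look.

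To compare levels between genes, CPM was divided by the length in kilobases of the longest annotated protein-coding transcript, which need not be the one expressed. On that scale Tnfaip2 stood highest without doxycycline at 66.4 ± 3.81, and at 32.5 ± 4.93 with it (SD, n = 3). By the mean over all 6 libraries it was followed by Il33, Il18, Il1rn, Cx3cl1 and Nfkbia. With doxycycline Il33 was at 32.9 ± 19.2 (SD, n = 3), within the spread of Tnfaip2. Il1rn at 25.8 ± 3.09, Nfkbia at 20.3 ± 1.35, Cx3cl1 at 19.9 ± 2.45 and Il18 at 19.5 ± 3.86 without doxycycline followed, and the last 3 did not differ beyond their spread. Il1a, Il1b and Il6 were under 0.1 on this scale in the mean of either group.

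Many of these genes are also made by lymphocytes, whose markers fell in the same libraries. A rule was set for this: a gene counted as made outside lymphocytes where each treated library held at least 1 CPM of it and more than the summed CPM of Cd3d, Cd3e, Cd3g, Cd247, Cd2 and Nkg7 there. In the untreated libraries that sum was 6.37 to 9.51 CPM, and in the treated ones 0.099 to 0.153 CPM, so that 1.66%, 1.04% and 2.40% remained in lines 3, 4 and 5. With that sum so low, any gene with at least 1 CPM in each treated library met the second part. The rule was thus in effect a cut on level, and by itself it does not tell which cells made a gene. Of the 42 genes 26 met the rule and 16 did not. Of the 15 listed as known from lymphocytes as well, 12 met it, Tnfaip3, Nfkbia, Nfkb1, Relb, Csf2 and Lif among them, and Ccl5, Tnf and Ltb did not. Tnfaip3, at 13.7 to 21.0 CPM in the treated libraries, and Tnip3 and Tnfaip2 met it. For Ccl5 and Ltb the treated levels were under 1 CPM, and the part of the lymphocyte RNA in their fall was not tested, nor was its part in the fall of Tnfaip3, Tnfaip2 and Tnip3. Leaving the leukocyte marker genes out before scaling and fitting gave the same 5 calls (1.12% of all genes lower). That fit drops only the marker genes. Any leukocyte RNA in the counts of the 5 genes stays, so the fit cannot show its part in their fall.

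**Figure D4:**
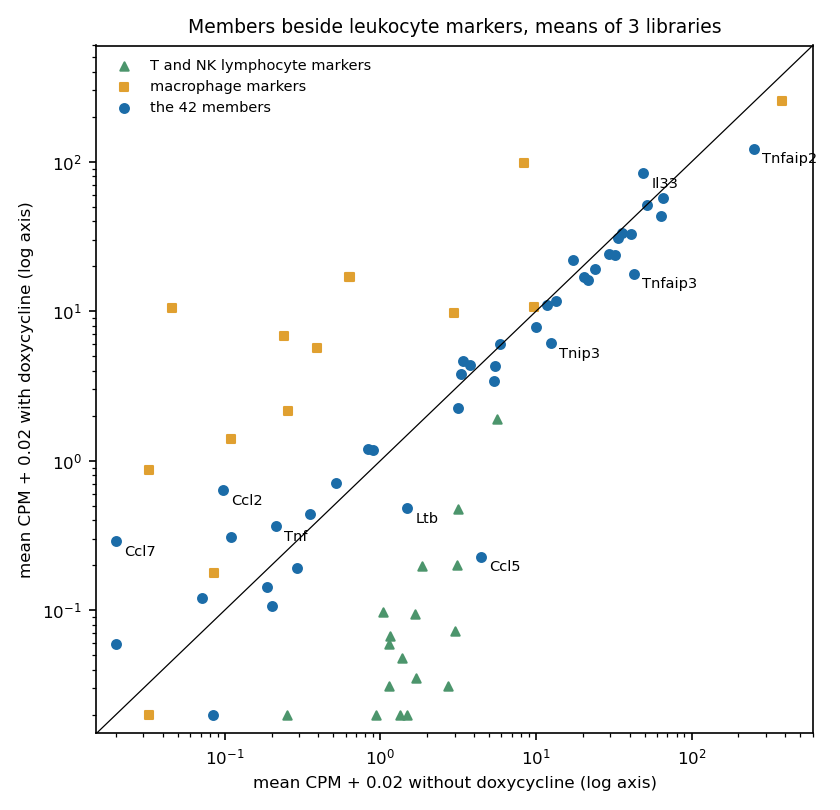
Mean level of 3 libraries without doxycycline (x axis) and with it (y axis), in CPM with 0.02 added, on log axes, for the 42 genes, 17 T and NK lymphocyte markers and 14 macrophage markers; the line marks equal levels. Most of the 42 genes lie along the line. Of the labelled genes, Ccl5, Ltb, Tnfaip3, Tnfaip2 and Tnip3 lie below it and Ccl2, Ccl7, Il33 and Tnf above it.

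The lines were also compared with each other in a model with doxycycline and line. By edgeR's test of the line terms 0 of the 31 tested genes differed between lines, and the smallest adjusted p was 0.868 (0.00% of all genes were called). At an unadjusted p under 0.05 there were 3, Il33 (0.00417), Il1rn (0.0257) and Cxcl16 (0.0379), against a background of 4.59%. With 1 library per line and condition, a difference between lines in the response to doxycycline could not be tested.

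Genes that act upstream of NF-kappaB or restrain it were described from lists of the pathway. Of 28 tested receptors and adaptors, 0 passed in edgeR, DESeq2 or limma-voom, and 2 were higher and 1 lower at an unadjusted p under 0.05 (8.33% and 7.96% of all genes). The smallest p-values were those of Irak3, an inhibitor of IL-1 and Toll-like receptor signalling at 0.192 to 0.235 CPM without and 0.457 to 0.693 with doxycycline (log2 fold change 1.39, edgeR adjusted p = 0.122), and Irak2, a kinase-like adaptor of the same receptors at 106 to 124 and 136 to 188 CPM (0.49, adjusted p = 0.125). Irak3 passed the filter through its treated libraries alone. Of 22 kinases and ubiquitin enzymes 0 passed in the same 3 tools and 0 had an unadjusted p under 0.05 in edgeR. Btrc, which marks IkappaB proteins for degradation, was at 22.3 to 25.9 CPM without and 16.3 to 22.2 with doxycycline (log2 fold change -0.33, edgeR adjusted p = 0.336). Nkrf, an NF-kappaB repressing factor in that list though neither a kinase nor a ubiquitin enzyme, was at 5.15 to 5.91 and 6.69 to 7.39 CPM (0.35, edgeR adjusted p = 0.387).

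Of 29 tested further targets of NF-kappaB 0 passed in edgeR and in limma-voom, with 5 lower and 2 higher at an unadjusted p under 0.05 (7.96% and 8.33% of all genes) and a median log2 fold change of -0.19. DESeq2 called 3 lower (2.69% of all genes), with Cfb and Zc3h12a among them. Cfb, the gene of complement factor B, was at 9.93 to 10.9 CPM without and 6.11 to 7.11 with doxycycline (log2 fold change -0.61, edgeR adjusted p = 0.11). Zc3h12a, the gene of an RNase that degrades cytokine messages, was at 9.36 to 11.4 and 6.47 to 6.92 CPM (-0.61, edgeR adjusted p = 0.111). Neither gene's groups overlapped.

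Among 21 tested receptors of the secreted factors 3 passed, 1 lower and 2 higher (1.32% and 0.963% of all genes). Ackr3, an atypical receptor that takes up Cxcl12, was at 134, 116 and 112 CPM without doxycycline and at 51.6, 31.9 and 63.5 with it (log2 fold change -1.30, SE 0.22, edgeR adjusted p = 0.0125). Its ligand Cxcl12 had 0 counts in the untreated libraries and 3 over the treated ones. The fall of Ackr3 was not called without line 4 (edgeR adjusted p = 0.0637) or without the untreated library of line 3 (0.117) or line 4 (0.0631). Csf1r, the receptor for Csf1 and Il34 and itself a macrophage marker, was at 1.89, 3.56 and 3.38 CPM and then at 8.87, 12.6 and 7.50 (log2 fold change 1.72, SE 0.29, edgeR adjusted p = 0.0139). Csf2rb, the shared receptor chain for Csf2, was at 0, 0.0392 and 0.115 CPM and then at 0.686, 2.94 and 0.765 (edgeR adjusted p = 0.0224). Csf2rb passed the filter through its treated libraries alone, so its being tested already depended on the group where it was high. In the same libraries 10 of 12 tested macrophage markers rose, Csf1r among them. The summed level of the macrophage markers overlapped between the groups (373 to 435 CPM without and 325 to 496 CPM with doxycycline). The part of macrophages in the rise of Csf1r and Csf2rb was not tested. Neither passed without line 4 (adjusted p = 0.137 and 0.194) or without the untreated library of line 3 (0.0937 and 0.152) or line 4 (0.0563 and 0.153).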

How the data were processed

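Total RNA of 6 cultures was sequenced. The deposited values are whole-number counts of reads per gene, made by the authors, 1 column per library, without normalization. Reads were aligned to mm10, and STAR and HTSeq are named per the submitters' processing notes, beside CASAVA, Picard, bedtools, DESeq2 and R 3.3.0. Other versions and the strand setting were not given in the sources used here. Genes overlapping on opposite strands therefore cannot be told apart. The files hold 48526 identifiers, of which 48058 were matched to symbols in GENCODE vM21, also the source of positions and lengths. Rows that name no gene held 43.7% to 47.7% of the reads and were left out.

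Treated and untreated libraries were compared with edgeR 4.0.16 in R 4.3.3. Genes were kept by filterByExpr (minimum counts of 10 per library and 15 in total), libraries scaled by TMM, and p-values of the quasi-likelihood test adjusted by Benjamini-Hochberg over all 14531 tested genes, with a threshold of 0.05. The biological coefficient of variation was 18.0%. An exact 2-sided permutation test of 3 against 3 libraries cannot give a p below 0.1, and no single gene was called by it. Ratios of counts in untested genes have exact binomial intervals at 95%, and a fold against 0 counts is a bound set with a floor of 3 counts over the group. The procedure was tested on simulated data. Promoter windows came from RefSeq (GRCm38.p6), and the stretches shown avoid annotated exons.

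The 42 genes and all lists were chosen with earlier results of these data known. Values in every library are given for genes with an adjusted p under 0.05 or a mean of at least 5 CPM, ranges for those at 0.5 to 5 CPM, and, from the other lists, up to 4 genes that passed or otherwise the 2 of smallest p. Libraries of a line pair, since they come from the same stable line; across genes, the correlation r of their deviations from the group mean was 0.0434 in line 3, 0.0962 in line 4 and 0.0274 in line 5, and -0.112 to 0.0713 between libraries of different lines. The pairing rests on the shared lines, since some of the latter exceeded the values within a line. Replicates were not duplicates: chi-square per degree of freedom between their counts was 7.86 to 22.6 without and 35.8 to 108 with doxycycline. The alternatives tried were scaling by RLE, no filter on low counts, a mean of at least 5 CPM, the line as a block, DESeq2 1.42.0, limma-voom (limma 3.58.1), leukocyte marker genes left out, and each library or line left out.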

Additional observations from a re-analysis of the deposited data

Results flagged for a closer look

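Ccl2 and Ccl7, chemokines that attract monocytes, were too low to pass the filter and so were not in edgeR's test as filtered. They were picked from the untested genes for having more counts in every treated than in every untreated library, and more than 3 counts with doxycycline. Ccl2 had 6 counts over the 3 untreated and 52 over the 3 treated libraries, a ratio of 8.59 after scaling (95% interval 3.69 to 24.5, covering counting error only). Its level was 0, 0.117 and 0.115 CPM in lines 3, 4 and 5 without doxycycline and 0.183, 1.09 and 0.574 CPM with it. Ccl7 had 0 and 22 counts, at least 7.27-fold higher when the untreated group is set to a floor of 3 counts in all, and was at 0.137, 0.363 and 0.306 CPM in the treated libraries. The exact permutation p was 0.1 for each, the smallest that 3 against 3 libraries allow. That value was fixed in advance by how the genes were picked. Without the filter edgeR called both higher, in a fit that called 1.59% of all genes higher, and Ccl2 was also called without the treated library of line 3 (4.57%) and without line 3 (1.80%). In the latter fits Ccl2 passed the filter through its treated libraries alone. The edgeR calls and the interval rest on the same counts by which Ccl2 and Ccl7 were picked. They are therefore no separate support for a rise. In the same libraries 10 of 12 tested macrophage markers rose, while their summed level overlapped between the groups (373 to 435 CPM without and 325 to 496 CPM with doxycycline). Mrc1, which makes up most of that sum, was at 382 ± 32.6 and 256 ± 113 CPM (SD, n = 3). Without Mrc1, left out after its values were seen, the sum was 22.1 to 24.7 and 115 to 261 CPM. The part of macrophages in these counts was not tested.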

How the results depend on the processing

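No direction of a called gene reversed under any alternative. The count of all genes called was 332, and 1052 without a filter on low counts, 50 at a mean of at least 5 CPM, 720 with DESeq2, and 62 to 1551 when a library or line was left out. The count of listed genes that fell was 5, and 2 at a mean of at least 5 CPM, where Ccl5 and Ltb were not tested and Tnip3 had an adjusted p of 0.0712. With the line as a replicate block it was 3, Tnfaip3, Tnfaip2 and Ccl5, and the block changed no other call among the named genes. It was 1 to 7 when a library or line was left out: 1 without line 4, 2 without the untreated library of line 3, 3 without that of line 4 or 5 or without line 5, and 7 without the treated library of line 3. These counts can hold genes outside the 5: Il1rn without line 5, and Nfkbia and Cxcl16 without the treated library of line 3. The count that rose was 0, and 3 without the filter (Il33, Ccl2 and Ccl7) and 0 to 2 with a library or line left out, 2 being Il33 and Ccl2 without the treated library of line 3 or without line 3. Without the filter Il1rn was also called lower (edgeR adjusted p = 0.0153), in a fit that called 2.30% of all genes lower. Of the listed genes, 3 differed between lines without the filter, against 0 with it. The share of all genes called in that unfiltered fit was not computed. RLE scaling, limma-voom and the fit without leukocyte markers gave 5 lower and 0 higher each. For genes under about 0.5 CPM depth limited what could be tested.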
